A study of Mus musculus with 4 samples.

Results

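The genes described here are 42 members of the interferon response outside the MHC class I genes. They were taken from a list of gene symbols, found in the authors' deposited comparison table and joined by Ensembl identifier to the count files, which hold 49585 genes. All 42 had a row in the count files, and 33 had enough counts to be tested. C2C12 cells are mouse myoblasts from the C3H strain, the dividing precursors of muscle fibres, and were kept here in the proliferating state. Both groups of cells carried a retroviral vector: the control group the empty vector (pLXSN in the sample titles), the other group a vector that overexpresses C/EBPβ, a leucine zipper transcription factor. Both were selected in G418 at 1200 μg/ml over 7 days, kept as a pool of stably transduced cells rather than as clones, and left to grow for 48 h in medium with 10% fetal bovine serum. Each group had 2 libraries. The labels do not say that the replicates were separate transductions or cultures, so a p-value here reflects only the spread among the 4 libraries, part of which may be technical. Cells without any vector were not analysed here, so transduction and drug selection are common to both groups and neither is a comparison below.

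Interferons are secreted proteins, and cells release those of type I on sensing viral nucleic acid. Type I interferons bind the receptor pair IFNAR1 and IFNAR2, and interferon gamma binds IFNGR1 and IFNGR2. Either receptor activates Janus kinases, which phosphorylate STAT proteins. A complex that holds STAT2 and IRF9 binds the interferon-stimulated response element, and STAT dimers bind the gamma-activated site. The target genes encode RNA sensors, further IRF transcription factors, direct antiviral effectors and GTPases that attack the membranes of intracellular pathogens.

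The 4 libraries held 37566321 to 92027838 counts, the deepest being C/EBPβ replicate 2. Cebpb itself, the overexpressed gene, stood at 85.0 and 76.8 CPM (counts scaled to a common library size) in the empty vector libraries and at 483 and 473 CPM in the C/EBPβ libraries, so all 4 libraries matched their labels. The 8 myoblast markers were detected in every library, with a summed level of 3460 and 3771 CPM in the empty vector and 2052 and 2386 CPM in C/EBPβ cells. They moved both ways: 5 were called lower, and 2, Myf5 (0.60) and Musk (1.21), were called higher. Of 18 macrophage and leukocyte markers, 6 (Tyrobp, Adgre1, Itgam, Cd3e, Siglech and Cd52) had 0 counts in every library, and Ptprc, the common leukocyte antigen, had at most 2. The summed level of those 18 was 22.3 and 20.3 CPM in the empty vector and 38.3 and 39.9 CPM in C/EBPβ cells. Among them Lyz2, Csf1r and Cd14 rose. Lyz2 (6 and 2 counts against 286 and 448) had enough counts to be tested only through its C/EBPβ libraries. The 6 endothelial markers summed to between 0.370 and 0.566 CPM in the 4 libraries. The 5 adipocyte markers went from 0.243 and 0.132 to 9.96 and 5.51 CPM, nearly all of it Fabp4. The part of these shifts in the results below was not tested. In RNA from a whole culture, fewer cells that express a gene and less of its RNA per cell cannot be told apart.

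With C/EBPβ, the members whose change was called were mostly receptors, transcription factors, RNA sensors and PARP proteins, and they rose. The 2 members that fell, Ifit2 and Rsad2, encode direct antiviral effectors. Rsad2 had enough counts to be tested only through its empty vector libraries, the group where it was higher. The roles also differed in level. A mean under 5 CPM was found for 0 of 4 receptors and 1 of 7 transcription factors, but for 2 of 3 IFIT genes. Of 4 OAS genes 2 could be tested, both under 5 CPM, and of 5 other direct effectors 2 could be tested. Whether role or level goes with the direction was not tested. Of the 33 tested members, 9 rose, 2 fell and 22 did not pass an adjusted p of 0.05 (edgeR quasi-likelihood test, Benjamini-Hochberg adjustment over 15078 genes). Over all genes tested, 24.9% were called, 14.1% higher and 10.8% lower, against 33.3% of the tested members called, 27.3% higher and 6.06% lower. The median log2 difference of the tested members was 0.20, and it was 0.08 when empty vector replicate 1 was left out and 39 members passed the count filter. Over all genes the median was 0.000545. The largest called rise was 1.26 on the log2 scale (Parp14) and the largest fall was 2.35 (Rsad2). In 19 of the 33 both C/EBPβ libraries lay above both empty vector libraries, and in 5 both lay below. The same was so for 33.3% and 32.9% of all genes tested. Of the 16 members with a mean over all 4 libraries of at least 5 CPM, 8 passed, and of the 17 tested members below it, 3. One of the 8, Irf5, reached that mean through its C/EBPβ libraries (mean 3.48 CPM with the empty vector, 7.53 CPM with C/EBPβ). The share of all genes called above and below 5 CPM was not worked out. Whether this split by level is particular to the members was not tested. With limma-voom 11 of 33 members passed (9 higher, 2 lower), beside 3751 of 15078 genes. With DESeq2 it was 7 of 37 (6 higher, 1 lower), beside 3487 of 16300 genes. Tested against a change of 1.5-fold, 3 of 33 members passed, beside 1259 of 15078 genes. Those 3 were Irf5, Ddx58 and Rsad2. The share of members called was thus below that of all genes with DESeq2, and close to it in the 1.5-fold test. Leaving out 1 library gave 7 to 10 calls. The split was 7 higher and 3 lower without empty vector replicate 1, and 6 higher and 1 lower when empty vector replicate 2 was dropped. It was 4 higher and 3 lower without C/EBPβ replicate 1, and 7 higher and 3 lower when C/EBPβ replicate 2 was dropped. The excess of rises over falls was thus smallest without C/EBPβ replicate 1.

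To show the sequences at the starts of these genes, promoter windows were taken from RefSeq (GRCm38.p6), each running from 250 bases before a start site to 50 bases after it. A window was held for 33 of the 42 members. Both strands were searched for 3 motifs, which may overlap one another. The interferon-stimulated response element was searched as GAAANNGAAA, the gamma-activated site as TTCNNNGAA and a C/EBP site as TTGCNNAA. For each motif a member counted once if any of its windows matched, and the 33 members held 38 windows. The share over all genes is one of single windows, so the units differ. The response element letters stood in the windows of 17 of the 33 members (51.5%), against 3.44% of all 32851 windows. The gamma-activated site stood in 11 (33.3%, against 8.3%). The C/EBP letters stood in 2, Irf2 and Gbp3 (6.06%, against 10.8%). Of the 15 tested members with the response element letters, 2 rose, 1 fell and 12 did not pass. Of the 14 tested members without it, 4 rose, 1 fell and 9 did not pass. The median log2 difference was 0.19 with the letters and 0.12 without. A match describes the letters of a window and shows no binding. The first 4 stretches below belong to Ddx58 and Irf5, which had a window among the 4 members with the largest rises, and to both members that fell. Irf2 is shown because its window holds all 3 motifs. Isg15, Ifit1 and Bst2 are well-known interferon targets that were not called, and these 4 were chosen after their values were seen. Capitals mark a motif match, and each stretch is read 5′ to 3′ along its gene.
Ddx58: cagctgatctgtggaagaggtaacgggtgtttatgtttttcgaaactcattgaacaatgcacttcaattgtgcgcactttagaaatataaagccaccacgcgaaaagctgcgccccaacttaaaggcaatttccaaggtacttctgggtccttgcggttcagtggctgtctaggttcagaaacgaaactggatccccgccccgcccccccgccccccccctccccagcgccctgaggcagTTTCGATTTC
Irf5: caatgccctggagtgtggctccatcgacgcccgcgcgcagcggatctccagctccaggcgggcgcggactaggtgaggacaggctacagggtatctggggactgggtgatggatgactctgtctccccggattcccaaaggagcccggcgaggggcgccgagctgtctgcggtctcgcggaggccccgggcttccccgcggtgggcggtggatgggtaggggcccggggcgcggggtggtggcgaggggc
Rsad2: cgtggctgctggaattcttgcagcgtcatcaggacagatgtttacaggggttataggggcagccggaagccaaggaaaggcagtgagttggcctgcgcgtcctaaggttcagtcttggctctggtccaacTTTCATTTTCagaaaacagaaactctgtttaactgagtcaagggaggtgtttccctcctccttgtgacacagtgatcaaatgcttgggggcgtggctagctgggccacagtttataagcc
Ifit2: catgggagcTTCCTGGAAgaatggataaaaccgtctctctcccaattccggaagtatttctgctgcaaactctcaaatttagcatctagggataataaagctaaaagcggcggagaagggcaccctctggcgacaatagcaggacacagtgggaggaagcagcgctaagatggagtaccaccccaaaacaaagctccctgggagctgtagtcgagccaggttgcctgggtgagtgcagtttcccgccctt
Irf2: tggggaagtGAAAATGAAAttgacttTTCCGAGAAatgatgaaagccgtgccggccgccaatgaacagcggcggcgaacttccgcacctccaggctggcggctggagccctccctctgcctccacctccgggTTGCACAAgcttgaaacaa
Isg15: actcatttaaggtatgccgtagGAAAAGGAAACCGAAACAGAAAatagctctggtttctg
Ifit1: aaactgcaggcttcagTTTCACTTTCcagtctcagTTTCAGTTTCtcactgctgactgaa
Bst2: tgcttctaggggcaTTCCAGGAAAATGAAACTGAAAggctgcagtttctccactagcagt
The Ddx58 stretch (chr4:40239814-40240063, minus strand) ends in a response element match read on the opposite strand, just after the start site. The Irf5 stretch (chr6:29526375-29526624, plus strand) holds none of the 3 motifs. The Rsad2 stretch (chr12:26456453-26456702, minus strand) holds a response element match on the opposite strand, and the Ifit2 stretch (chr19:34550444-34550693, plus strand) a gamma-activated site only. RefSeq gives a second start for Ifit2, and its window holds none of the 3. The Irf2 stretch (chr8:46739495-46739645, plus strand) holds in order a response element, a gamma-activated site and a C/EBP site. Isg15 (chr4:156200859-156200918, minus strand) has 3 overlapping response element matches, and Ifit1 (chr19:34640769-34640828, plus strand) has 2 on the opposite strand. In Bst2 (chr8:71537563-71537622, minus strand) a gamma-activated site runs into 2 overlapping response element matches. Response element letters thus stood in members that rose, fell and were not called.

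**Figure D1:**
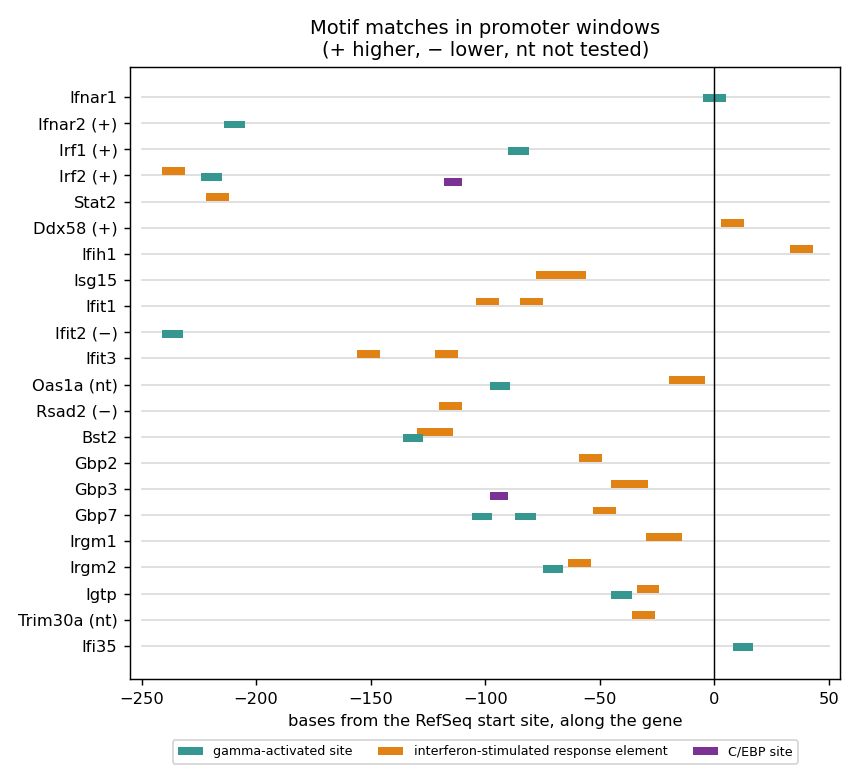
Motif matches along the promoter windows of members that hold at least 1 match. The x axis gives bases from the RefSeq start site along the gene, each bar is 1 match or a run of overlapping ones, and a plus or minus after a name marks a gene that rose or fell. Response element letters are spread over called and uncalled genes, and C/EBP letters appear in Irf2 and Gbp3.

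All 4 receptor chains were expressed. Ifnar2, the chain of the type I receptor that carries most of the binding (chr16:91372783-91405589), stood at 21.1 and 19.3 CPM with the empty vector and at 29.1 and 27.0 CPM with C/EBPβ. Both C/EBPβ libraries lay above both controls. Ifnar2 rose by 0.47 on the log2 scale (SE 0.10, edgeR adjusted p = 0.0116), but did not pass when C/EBPβ replicate 1 was left out (0.42, edgeR adjusted p = 0.0583). Its exons overlap those of the gene model Gm21970 on the same strand in GENCODE M21, so part of its reads may be counted for neither. Ifnar1, its partner chain (chr16:91485238-91507441), gave 89.2 and 96.5 against 96 and 95 CPM. The groups overlapped (log2 difference 0.04, SE 0.08, edgeR adjusted p = 0.766).

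For the interferon gamma receptor, Ifngr2, the signalling chain (chr16:91547072-91565169), stood at 40.6 and 41.2 against 50.7 and 49.4 CPM. It rose by 0.29 (SE 0.08, edgeR adjusted p = 0.0325) with no overlap between groups. It failed 6 of 12 alternative settings, the most of any called member, among them DESeq2 (adjusted p = 0.0519) and leaving out each library in turn (0.27 to 0.31, edgeR adjusted p from 0.0539 to 0.245). Ifngr1, the ligand-binding chain (chr10:19591949-19610229), gave 43.5 and 41.5 against 49.4 and 48.5 CPM. Both C/EBPβ libraries were higher, but the gene did not pass (0.20, SE 0.08, edgeR adjusted p = 0.117). Per kilobase of exon, Ifnar2 was the lowest of the 4 chains, at 6.06 CPM per kb with the empty vector and 8.43 with C/EBPβ. The other three lay between 12.3 and 17.2 CPM per kb. The genes Ifnar2, Il10rb, Ifnar1 and Ifngr2 lie in that order on chromosome 16. Il10rb, a chain shared by the interleukin 10 and interferon lambda receptors, is no member and did not pass (0.30, edgeR adjusted p = 0.0561).

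Of 7 interferon transcription factors, 3 rose, beside 14.1% of all genes tested. The differences of all 7 were above 0, as were 7550 of 15078 over all genes. Those of Irf3 and Irf9 were smaller than their SE, and the authors' deposited table has Irf3 at -0.0081. Irf5, which acts downstream of Toll-like receptors and is best known from myeloid cells (chr6:29526625-29541871), stood at 3.57 and 3.38 CPM with the empty vector and at 8.55 and 6.52 CPM with C/EBPβ. That is a rise of 1.10 on the log2 scale (SE 0.18, edgeR adjusted p = 0.00287), and it passed under all 12 alternative settings. Irf1, an early interferon target that activates interferon genes (chr11:53770014-53778374), stood at 39.4 and 42.4 against 52.7 and 55.2 CPM. Both C/EBPβ libraries were above both controls. Irf1 rose by 0.40 (SE 0.09, edgeR adjusted p = 0.0107), a call that did not hold without C/EBPβ replicate 2 (0.37, edgeR adjusted p = 0.0632). Irf2, which competes with IRF1 for the same sites and mostly restrains it (chr8:46739732-46847458), stood at 27.8 and 23.9 against 35.9 and 34.3 CPM. It too rose without overlap, by 0.44 (SE 0.11, edgeR adjusted p = 0.0179). Irf2 did not pass without empty vector replicate 2 (0.33, edgeR adjusted p = 0.0612), nor when C/EBPβ replicate 1 was left out (0.40, edgeR adjusted p = 0.0542). The activator and its antagonist thus both rose, and the difference between their changes was not tested.

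The other four factors were not called. Irf7, the amplifier of type I interferon production (chr7:141262706-141266481), was scarce, at 0.535 and 0.819 against 1.02 and 1.32 CPM. Its groups did not overlap (0.82, SE 0.30, edgeR adjusted p = 0.0836), and it passed without the count filter (adjusted p = 0.0233). Irf3, the factor activated directly by RNA and DNA sensing (chr7:44997648-45002848), was nearly level in all 4 libraries, at 44.4, 44.1, 45.6 and 45.1 CPM (0.03, SE 0.08, edgeR adjusted p = 0.801). Irf9, the DNA-binding part of its complex with STAT2 (chr14:55603571-55610030), gave 12 and 14 against 14.4 and 13.5 CPM, with overlapping groups (0.10, SE 0.12, edgeR adjusted p = 0.598). Its exons overlap those of Rnf31 on the same strand, so its count is uncertain. Stat2, the STAT specific to type I and type III interferon (chr10:128270576-128292849), gave 34.5 and 42.8 against 43.1 and 50.3 CPM. The lower C/EBPβ library barely exceeded the higher control (0.28, SE 0.12, edgeR adjusted p = 0.148). Stat2 passed when empty vector replicate 2 was left out (0.44, edgeR adjusted p = 0.0492).

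**Figure D2:**
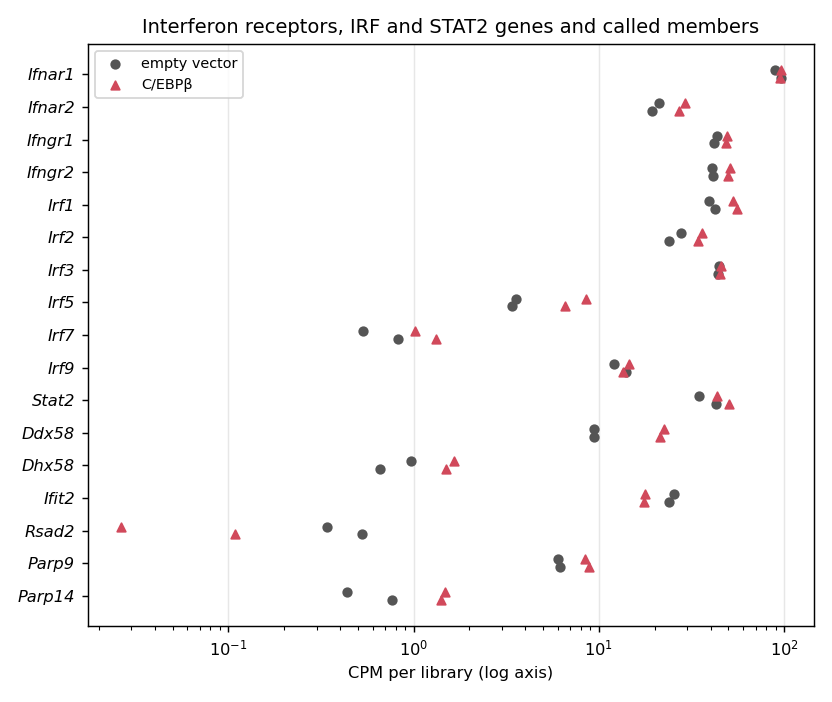
Level of the receptors, transcription factors and every called member in each library. The x axis is CPM on a log scale; circles are the 2 empty vector libraries and triangles the 2 C/EBPβ libraries, with replicate 1 drawn above replicate 2. The triangles of Ddx58 and Irf5 lie well to the right of the circles, those of Rsad2 and Ifit2 lie to the left, and those of Ifnar1 and Irf3 coincide with them.

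Among the nucleic acid sensors, 2 of the 3 cytosolic RNA helicase genes rose, beside 14.1% of all genes tested. Ddx58 encodes RIG-I, the sensor of short RNA with a 5′ triphosphate (chr4:40203773-40239828). It stood at 9.46 and 9.44 CPM in the empty vector libraries and at 22.4 and 21.3 CPM in the C/EBPβ libraries. The replicates lay far closer together than the groups. Ddx58 rose by 1.21 on the log2 scale (SE 0.11, edgeR adjusted p = 0.000159), the smallest p of any member, and passed under all 12 alternatives. Dhx58 encodes LGP2, a relative of RIG-I without the signalling domain that tunes the other helicases (chr11:100694884-100704271). It stood at 0.972 and 0.661 against 1.65 and 1.5 CPM and rose by 0.93 (SE 0.27, edgeR adjusted p = 0.0357). Its groups did not overlap, but it did not pass with DESeq2 (adjusted p = 0.127), without empty vector replicate 2 (0.68, edgeR adjusted p = 0.155) or when C/EBPβ replicate 1 was dropped (0.87, edgeR adjusted p = 0.0745). Ifih1 encodes MDA5, the sensor of long double-stranded RNA. It gave 1.19 and 1.85 against 0.970 and 1.56 CPM, with overlapping groups (-0.21, SE 0.31, edgeR adjusted p = 0.669). Whether the changes of these genes differ from one another was not tested. Zbp1, a sensor of Z-form nucleic acid, was too low to test, with 1 and 6 counts against 9 and 27. Its pooled ratio was 3.09 (95% counting interval 1.36 to 8.22), and without the count filter it did not pass (edgeR adjusted p = 0.0585).

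Neither gene of the ISG15 system was called. Isg15, the ubiquitin-like modifier, gave 1.24 and 1.35 against 1.36 and 1.57 CPM (0.19, SE 0.23, edgeR adjusted p = 0.581). Usp18, the protease that removes ISG15 and blocks IFNAR2 signalling, had 5 and 20 counts in the empty vector and 1 and 6 in the C/EBPβ libraries. It was below the count filter. The pooled Usp18 ratio, scaled to library totals, was 0.168 (95% counting interval 0.0614 to 0.400), and the groups did not overlap in CPM (0.122 and 0.529 against 0.0262 and 0.0653). Without the filter it passed as lower (-2.53, edgeR adjusted p = 0.00140), and with DESeq2 it did not (adjusted p = 0.106).

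The 3 IFIT genes, whose products bind foreign RNA ends and block its translation, lie close together on chromosome 19, with Ifit1bl1 and Ifit3b between Ifit3 and Ifit1. Ifit2 (chr19:34550694-34576419) stood at 25.4 and 23.9 CPM with the empty vector and at 17.7 and 17.4 CPM with C/EBPβ. Both C/EBPβ libraries were lower, and it fell by 0.49 on the log2 scale (SE 0.10, edgeR adjusted p = 0.00822). The Ifit2 call held under 11 of 12 alternatives and was lost only when tested against a 1.5-fold change. Ifit3, its neighbour, was far lower, at 0.267 and 0.370 against 0.262 and 0.207 CPM, and did not pass (-0.48, SE 0.40, edgeR adjusted p = 0.427). Ifit1 gave 1.19 and 0.952 against 0.577 and 1.32 CPM, with the 2 C/EBPβ libraries on either side of the controls (-0.09, SE 0.37, edgeR adjusted p = 0.894). Per kilobase of exon, Ifit2 stood at 6.28 CPM per kb in the empty vector cells, against 0.403 for Ifit1 and 0.183 for Ifit3.

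The 4 OAS family genes, which make or resemble the enzymes that make the messenger of RNase L, were all scarce. None of the 2 tested members passed with edgeR, limma-voom or DESeq2, and 1, Oasl1, had an unadjusted p under 0.05. Oasl1 gave 0.754 and 0.529 against 0.367 and 0.359 CPM (-0.83, SE 0.33, edgeR adjusted p = 0.106), without overlap. Oasl2 gave 1.75 and 2.46 against 2.25 and 2.22 CPM (0.09, SE 0.23, edgeR adjusted p = 0.814), with overlap. Oas1a and Oas2 were below the filter. Oas1a had 5 and 10 counts against 2 and 3 (pooled ratio 0.200, 95% counting interval 0.0569 to 0.579). Oas2 had 4 and 7 counts against 1 and 0 (pooled ratio 0.0546, 95% counting interval 0.00127 to 0.376). Without the filter Oas2 passed as lower (edgeR adjusted p = 0.0269) and Oas1a did not (edgeR adjusted p = 0.0554). Oas1a has close copies in the mouse genome, and since reads shared between copies were left out, its level is uncertain. The same caution holds for the IFIT, Gbp and Irgm genes.

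Among the other direct effectors, Rsad2 encodes viperin, a radical enzyme that makes a chain-terminating nucleotide (chr12:26442753-26456452). It had 14 and 20 counts in the empty vector libraries and 1 and 10 in the C/EBPβ libraries, the latter in the deepest library. In CPM this was 0.340 and 0.529 against 0.0262 and 0.109, with no overlap. Rsad2 fell by 2.35 on the log2 scale (SE 0.54, edgeR adjusted p = 0.0147). The size is loosely fixed: the pooled ratio was 0.194 (95% counting interval 0.0888 to 0.393). With 1 library left out the ratio ran from 0.0597 to 0.251. The lowest value (0.00147 to 0.356) was without C/EBPβ replicate 2, which leaves 1 count in the C/EBPβ group. The highest was without C/EBPβ replicate 1. Rsad2 did not pass without empty vector replicate 2 (-2.03, edgeR adjusted p = 0.110) or with DESeq2 (adjusted p = 0.0561). Its neighbour on chromosome 12, Cmpk2, which supplies the nucleotide that viperin converts, had 3 and 11 counts against 0 and 9. Its groups overlapped.

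The other three effectors were not called. Mx1, a dynamin-like GTPase, had 9 and 6 counts against 3 and 5 (pooled ratio 0.320, 95% counting interval 0.118 to 0.805) and did not pass without the filter (edgeR adjusted p = 0.177). Mx2, annotated as a polymorphic pseudogene in the mouse, had 2 and 11 counts against 6 and 6, with overlap. Bst2, or tetherin, which holds budding virus at the cell surface, was well expressed at 7.93 and 7.56 against 8.36 and 9.69 CPM. It did not pass (0.23, SE 0.14, edgeR adjusted p = 0.272).

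None of the 6 interferon-inducible GTPases passed with edgeR, limma-voom or DESeq2. With edgeR 1 of them, Gbp2, had an unadjusted p under 0.05. Gbp2, a guanylate-binding protein, gave 0.656 and 0.740 against 1.34 and 1.15 CPM, without overlap (0.82, SE 0.26, edgeR adjusted p = 0.0518). It passed without the count filter (adjusted p = 0.0233). Gbp7 gave 0.0972 and 0.397 against 0.367 and 0.403 CPM, and Gbp3 between 0.314 and 0.423 CPM in the 4 libraries, both with overlap. Irgm1, a regulator of the other immunity-related GTPases, was the one GTPase at a substantial level, at 37.5 and 31.3 against 31.5 and 33.9 CPM (-0.07, SE 0.11, edgeR adjusted p = 0.693). Its C/EBPβ libraries lay between the controls. Irgm2 and Igtp stood between 0.341 and 0.827 CPM. Their exons overlap on the same strand in GENCODE M21, as do those of Gbp7 and Gm43802, so their counts are uncertain.

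**Figure D3:**
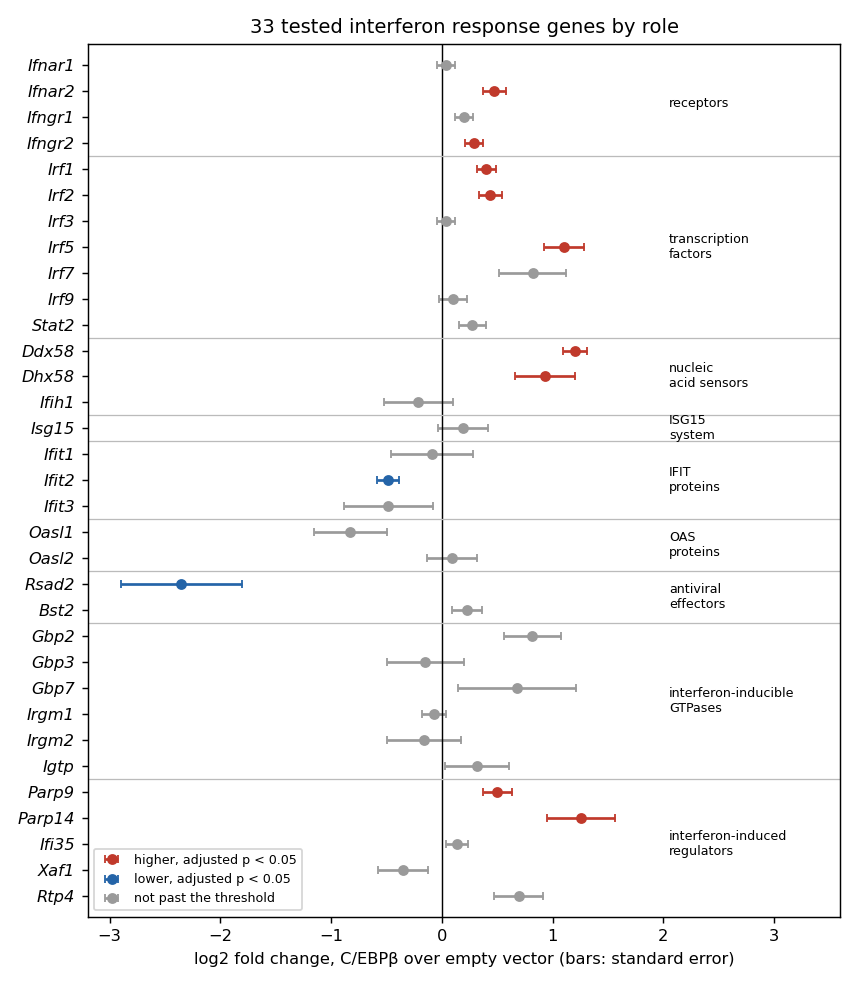
Log2 difference of C/EBPβ over empty vector for the 33 tested members, grouped by role. Points are edgeR estimates, bars are 1 standard error, red marks genes that rose, blue genes that fell and grey genes that did not pass. Red points sit among receptors, transcription factors, sensors and PARP genes, blue points at Ifit2 and Rsad2, and the GTPases are all grey.

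Of 7 other interferon-induced regulators, 5 could be tested and 2 rose, beside 14.1% of all genes tested. Parp14, a large ADP-ribosyltransferase with macrodomains (chr16:35832874-35871544), stood at 0.438 and 0.766 against 1.47 and 1.4 CPM. Both C/EBPβ libraries were well above both controls. Parp14 rose by 1.26 (SE 0.30, edgeR adjusted p = 0.0181), a call that did not hold with DESeq2 (adjusted p = 0.0502) or without empty vector replicate 1 (0.90, edgeR adjusted p = 0.102). Parp9, which works in a complex with the ubiquitin ligase DTX3L (chr16:35938470-35972605), stood at 6.03 and 6.16 against 8.39 and 8.83 CPM. It rose by 0.50 (SE 0.13, edgeR adjusted p = 0.0261), again without overlap. Parp9 did not pass when any 1 library was left out (0.46 to 0.53, edgeR adjusted p from 0.0608 to 0.116). Dtx3l lies between these 2 genes on chromosome 16 and was not called (0.29, edgeR adjusted p = 0.215).

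Rtp4, a chaperone of surface receptors that also dampens interferon output, gave 2.43 and 1.69 against 3.56 and 3.16 CPM. Both C/EBPβ libraries were higher, and it fell just short (0.69, SE 0.22, edgeR adjusted p = 0.0532). Rtp4 passed without empty vector replicate 1 (0.98, adjusted p = 0.0372) and when C/EBPβ replicate 2 was dropped (0.78, adjusted p = 0.0321). Ifi35, a partner of NMI, gave 23.1 and 21.5 against 23.6 and 25.3 CPM (0.14, SE 0.10, edgeR adjusted p = 0.371). Xaf1, a pro-apoptotic interferon target, gave 2.75 and 1.96 against 1.91 and 1.80 CPM (-0.35, SE 0.23, edgeR adjusted p = 0.308). Neither passed. Exons of Parp14 and Rtp4 also overlap those of other gene models on the same strand. Trim30a had 2 and 0 counts against 0 and 1, and Ifi44 had 0 and 12 against 8 and 15. At these counts no change could be read for either.

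**Figure D4:**
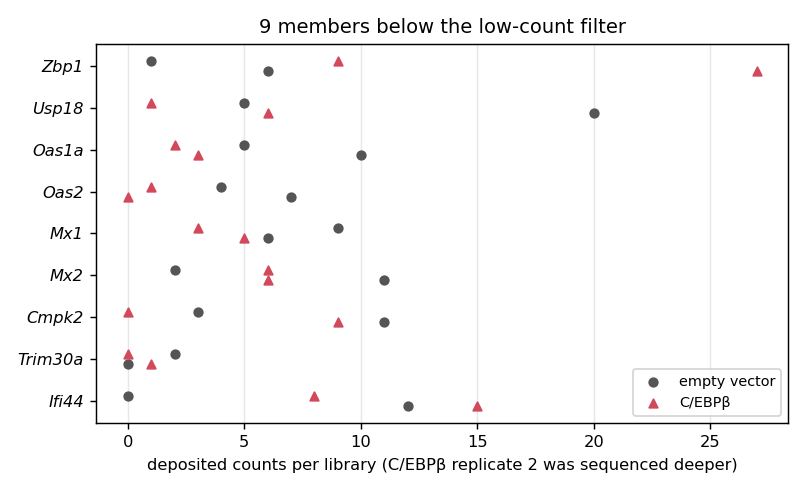
Deposited counts of the 9 members that were below the low-count filter. The x axis is the count per library, circles are empty vector and triangles C/EBPβ libraries, with replicate 1 above replicate 2; C/EBPβ replicate 2 was sequenced deeper, so equal counts there stand for a lower level. Usp18, Oas1a, Oas2 and Mx1 had more counts in the control libraries, and Zbp1 more in the C/EBPβ libraries.

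Interferon genes outside the list also moved in both directions. Among 67 other interferon-stimulated genes 42 passed the count filter. In this list 14 rose (33.3% of those tested) and 2 fell (4.76%), beside 14.1% and 10.8% of all genes, and the median log2 difference was 0.22. The rise with the smallest p was Ms4a4d, which encodes a membrane-spanning protein, with 2 and 1 counts in the empty vector and 158 and 469 in the C/EBPβ libraries (pooled ratio 126, 95% counting interval 42.8 to 610). Gbp9, a guanylate-binding protein outside the member list, had 4 and 2 counts against 58 and 137 (pooled ratio 19.5, 95% counting interval 8.81 to 53.8). The Gbp9 log2 difference was 4.27 (SE 0.39, edgeR adjusted p = 0.000166). Exons of Gbp9 overlap those of Gbp4 and Gbp8 on the same strand, so its count is uncertain. Ms4a4d, Gbp9, Sp100 and Slfn2, all among the 14 that rose, passed the count filter only through their C/EBPβ libraries. The 33.3% thus includes genes that could be tested only through the group where they were high. Lgals3bp, a secreted galectin-binding protein, stood at 14.9 and 13.8 against 35.2 and 28.5 CPM and rose by 1.14 (SE 0.13, edgeR adjusted p = 0.000429). In the other direction Ifitm1, which blocks virus entry at membranes, stood at 5.64 and 7.11 against 1.28 and 2.02 CPM. Ifitm1 fell by 1.89 (SE 0.24, edgeR adjusted p = 0.000768). Ube2l6, the conjugating enzyme for ISG15, fell by 0.31 (SE 0.10, edgeR adjusted p = 0.0499), from 25.3 and 26.6 to 20.3 and 21.5 CPM. Ube2l6 did not pass with DESeq2 (adjusted p = 0.0701) or with any 1 library left out (-0.27 to -0.36, edgeR adjusted p from 0.0618 to 0.312).

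Upstream of the members, transcripts of the interferons were at or near 0. Ifnb1, Ifna1, Ifna2, Ifna4, Ifnk, Ifnl2 and Ifnl3 had 0 counts in all 4 libraries, where 3 counts would be 0.0326 to 0.0799 CPM. Ifne had at most 2 counts and Ifng at most 1 in a library. Of 50 ligand, sensing and signalling genes, 36 passed the filter and 8 of these were called (22.2%, beside 24.9% of all genes), with a median log2 difference of 0.15. Tlr7, the endosomal sensor of single-stranded RNA, had 2 and 4 counts against 34 and 71 and rose by 3.39 (SE 0.45, edgeR adjusted p = 0.000985). Its pooled ratio was 10.5 (95% counting interval 4.67 to 29.3). That ratio was 7.55 without empty vector replicate 1 and 16.4 without empty vector replicate 2. Tlr7 passed the count filter only through its C/EBPβ libraries. Socs3, a feedback inhibitor of Janus kinases, stood at 28.4 and 27.3 against 42.1 and 39.7 CPM and rose by 0.55 (SE 0.09, edgeR adjusted p = 0.00303). Cyld, a deubiquitinase, rose by 0.42 (SE 0.08, edgeR adjusted p = 0.00569). No test of a list against other genes was made.

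**Figure D5:**
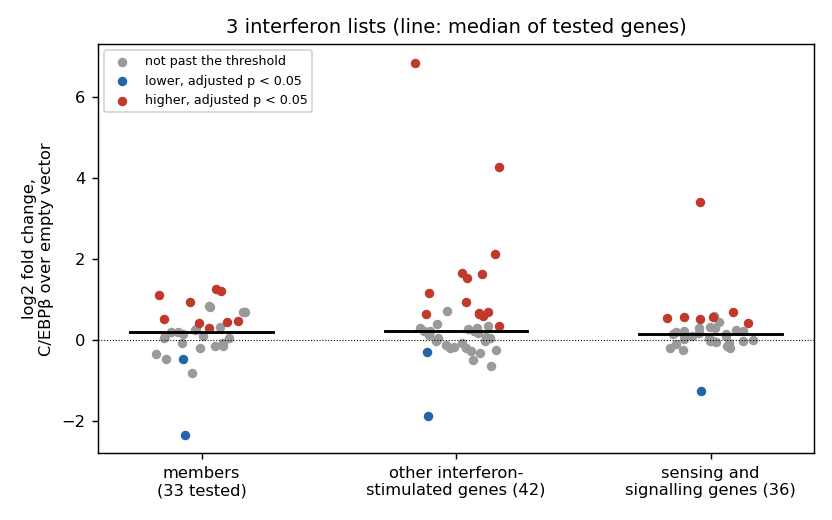
Log2 difference of C/EBPβ over empty vector for each tested gene of 3 lists: the 33 members, 42 other interferon-stimulated genes and 36 sensing and signalling genes. Each point is a gene, coloured by its call, and the black line is the list's median (0.20, 0.22 and 0.15). The members span -2.35 to 1.26, and the largest differences, Ms4a4d and Gbp9, lie outside them.

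The authors' deposited table gives its own comparison, with an adjusted p for 39 of the 42 members. It calls 14 of them, 10 higher and 4 lower, beside 26.0% of the 16594 genes with an adjusted p in it. All 11 members called here are among those 14 in the same direction. The other three in the authors' deposited table are Rtp4 (log2 fold change 0.64, adjusted p = 0.0412), Usp18 (-1.82, adjusted p = 0.0263) and Oas2 (-1.81, adjusted p = 0.0413). Its base means match those recomputed from the deposited counts to within 1% for 555 of 18309 genes, so the authors' deposited table was not made in quite the same way as the values here.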

How the data were processed

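Messenger RNA of 4 strand-specific libraries was measured, with groups and replicate numbers taken from the sample titles. The deposited counts are whole-number fragment counts per gene, made per the file headers with featureCounts 1.5.1 in reverse-stranded mode on GENCODE M12. The submitters' processing notes name HISAT2 2.0.4, GRCm38, featureCounts 1.4.6 and DESeq2; the 2 featureCounts versions differ, and no DESeq2 version is stated. Per the file headers, no option to count multi-mapping or ambiguous reads was set, so genes with close copies or overlapping exons can be under-counted. The authors' deposited comparison table gives, for each gene, the mean normalized signal, the log2 change and its error, the test score, and raw and adjusted p-value.

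From the counts, edgeR 4.0.16 (R 4.3.3) was run with TMM scaling, filterByExpr (minimum count 10) and the quasi-likelihood test of the 2 C/EBPβ against the 2 empty vector libraries. Benjamini-Hochberg adjustment ran over the 15078 genes that passed, with a call at an adjusted p under 0.05. The script was tested on simulated data. CPM are counts scaled to a common library size with TMM factors. Pooled count ratios are scaled to library totals and carry exact binomial 95% intervals, which cover counting error only. Alternatives were DESeq2 1.42.0, limma-voom (limma 3.58.1), 2 other scalings, 2 other count filters, a test against 1.5-fold, a replicate block and leaving out each library. With a library left out, the lone library of a group was assumed to vary like the other group's. The members and all gene lists were chosen with earlier results of these data known. Values are given for all called members, receptors, IRF genes and Stat2, and for up to 3 called genes in each direction of the other lists by smallest adjusted p. Promoter windows and gene positions are GRCm38, and 30 of the members' 38 windows read as a GENCODE transcript of the gene after the start. One gene of the other interferon-stimulated list (Mnda) was not found by symbol. Results for some genes of the signalling list are not reported here.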

Additional observations from a re-analysis of the deposited data

How the results depend on the processing

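The member count of 11 calls stayed within 1.5-fold with both other scalings, limma-voom, both other filters and the replicate block, between 10 and 16. Without the count filter 16 of 42 members were called, beside 4506 of 26623 genes. With a filter of 1 CPM in 2 libraries it was 10 of 26 members, beside 3450 of 12555 genes. It was 7 with DESeq2 and 3 when tested against a 1.5-fold change. That test also left 7 of the other interferon-stimulated genes, 1 sensing and signalling gene and 1259 of all genes. Leaving out 1 library gave 7 to 10 member calls, 2493 to 3462 calls over all genes and a member median of 0.0817 to 0.254, the lowest without empty vector replicate 1 (0.0817). The number of members past the count filter also differs between these runs, and the cause of the lower median was not tested. Irf5 and Ddx58 kept their call in every alternative run. No called member changed sign. Of the uncalled members, 9 did when 1 library was left out: Ifnar1 (-0.018 to 0.095), Irf9 (-0.0092 to 0.21), Ifih1 (-0.64 to 0.13), Ifit1 (-0.89 to 0.29), Oasl2 (-0.14 to 0.35), Gbp3 (-0.31 to 0.0059), Gbp7 (-0.029 to 1.97), Irgm1 (-0.20 to 0.065) and Irgm2 (-0.53 to 0.018). Scaling by library totals moved the median of all genes to -0.0185. The groups share replicate numbers but nothing in the labels pairs them, and the replicate differences correlated at 0.147 across 15078 genes, which are not independent. With the replicate number as a block 15 members were called (13 higher, 2 lower). Over all 15078 genes the block raised the calls too, from 3759 to 4536. The 15 members were the 11 and, all higher, Irf7, Stat2, Gbp2 and Rtp4. The 9 untested members had 0 to 27 counts in a library, too few for the count filter.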
